A study of Mus musculus with 12 samples.

Results

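The p53 pathway was examined as 35 genes, taken by symbol from a fixed list of the Trp53 family, its inhibitors and its target genes, out of 47480 gene symbols counted. All 35 symbols had a row. Of these, 33 passed the filter on low counts and were tested, and Eda2r and Trp73 did not pass. RNA of whole mouse trigeminal nerve was sequenced in 12 libraries. Of these, 6 came from plexiform neurofibroma, the benign nerve tumour of neurofibromatosis type 1, in mice with floxed Nf1 alleles and the PostnCre transgene (Nf1 flox/flox PostnCre+). The other 6 came from normal nerve of mice with the same floxed alleles and no Cre (Nf1 flox/flox PostnCre-). Tumour state, Nf1 loss and the Cre transgene therefore coincide and cannot be told apart, and the labels give no strain, age, sex or treatment. The Postn promoter directs Cre to the Schwann cell lineage, and the whole nerve also holds cells outside it. A library held between 14160025 and 19989351 estimated counts.

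The transcription factor p53 is kept low by Mdm2 and Mdm4 and is stabilised by DNA damage, by oncogene signalling and by free ribosomal proteins. The Cdkn2a locus encodes p19Arf, which binds Mdm2 and so frees p53, and from another first exon p16Ink4a, which inhibits Cdk4 and Cdk6. Stabilised p53 activates genes of cell cycle arrest, cell death, DNA repair and metabolism, and also its own inhibitor Mdm2, whose level is a common readout of p53 activity. The question was whether a raised Cdkn2a locus in the tumours came with raised RNA of p53 targets.

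Levels are in CPM, the count of a gene as a share of its library's total, scaled by TMM factors. A gene was called where its adjusted p was under 0.05 in edgeR's quasi-likelihood F test with Benjamini-Hochberg adjustment over the 17236 genes tested. Every adjusted p below comes from that test unless another tool is named. Fold changes are tumour over normal nerve, and each 95% interval comes from the same fit, without correction for the number of genes.

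The tissue matched its label in part. Schwann cell markers summed to 6366 to 11395 CPM in the tumours and 2513 to 6267 CPM in normal nerve, with 5 of 8 called higher. Fibroblast markers summed to 1361 to 3023 CPM in the tumours and 173 to 1174 CPM in normal nerve, with 4 of 6 called higher. RNA of sensory neuron cell bodies was high in every library. Tubb3, a neuronal tubulin, stood at 1240 to 1640 CPM in the tumours and 969 to 1807 CPM in normal nerve. The 8 sensory neuron markers summed to 4055 to 5082 CPM in the tumours and 3494 to 6230 CPM in normal nerve. All 8 had a log2 fold change below 0, with a median of -0.23, and only Snap25 was called, as lower. Macrophage markers summed to 128 to 298 CPM in the tumours and 42.7 to 191 CPM in normal nerve, with 2 of 6 called higher. Endothelial markers summed to 49.2 to 85.5 CPM in the tumours and 63.03 to 130 CPM in normal nerve, with 1 of 5 called lower. T cell markers stayed under 7 CPM in sum in every library, and among the epithelial markers only Cdh1, at 126 CPM or more, exceeded 7.4 CPM anywhere. Several libraries stood apart. Tumour replicate 1 had 1402 CPM of skeletal muscle markers and normal replicate 3 had 339 CPM, where the other 10 libraries had at most 34.8 CPM. Normal replicate 6 had 1585 CPM of markers of central nervous system glia. These markers varied widely elsewhere too, from 61.8 to 495 CPM in the other normal nerves and from 63.8 to 780 CPM in the tumours. Normal replicate 2 had the lowest Schwann cell and fibroblast sums. In bulk tissue, fewer cells of a type and less RNA per cell cannot be told apart. The part of these shifts in the values below was not tested.

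Few genes of the p53 pathway differed between the tumours and normal nerve. Phlda3 and Plk2 rose and Zmat3 fell, so that 3 of the 33 tested genes were called, or 9.09%, where 18.7% of all genes tested were called. Over all genes, 10.0% were called higher and 8.63% lower. The log2 fold change was above 0 for 15 of the 33 and below 0 for 18, with a median of -0.04, against -0.02 over all genes. The values ran from -0.81 for Perp to 0.54 for Phlda3. The CPM of both groups were wholly apart for 1 of the 33, Zmat3 (3.03%), which was lower, and for 7.39% of all genes tested (4.40% higher and 2.99% lower). For 23 of the 33 genes (69.7%), the 95% interval of the fold lay wholly within 1.5-fold either way, and the same held for 52.2% of all genes. The upper end of the interval was under 1.5-fold for 28 of the 33 and under 2-fold for all 33. The mean was at least 10 CPM in both groups for 20 of the 35.

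**Figure D1:**
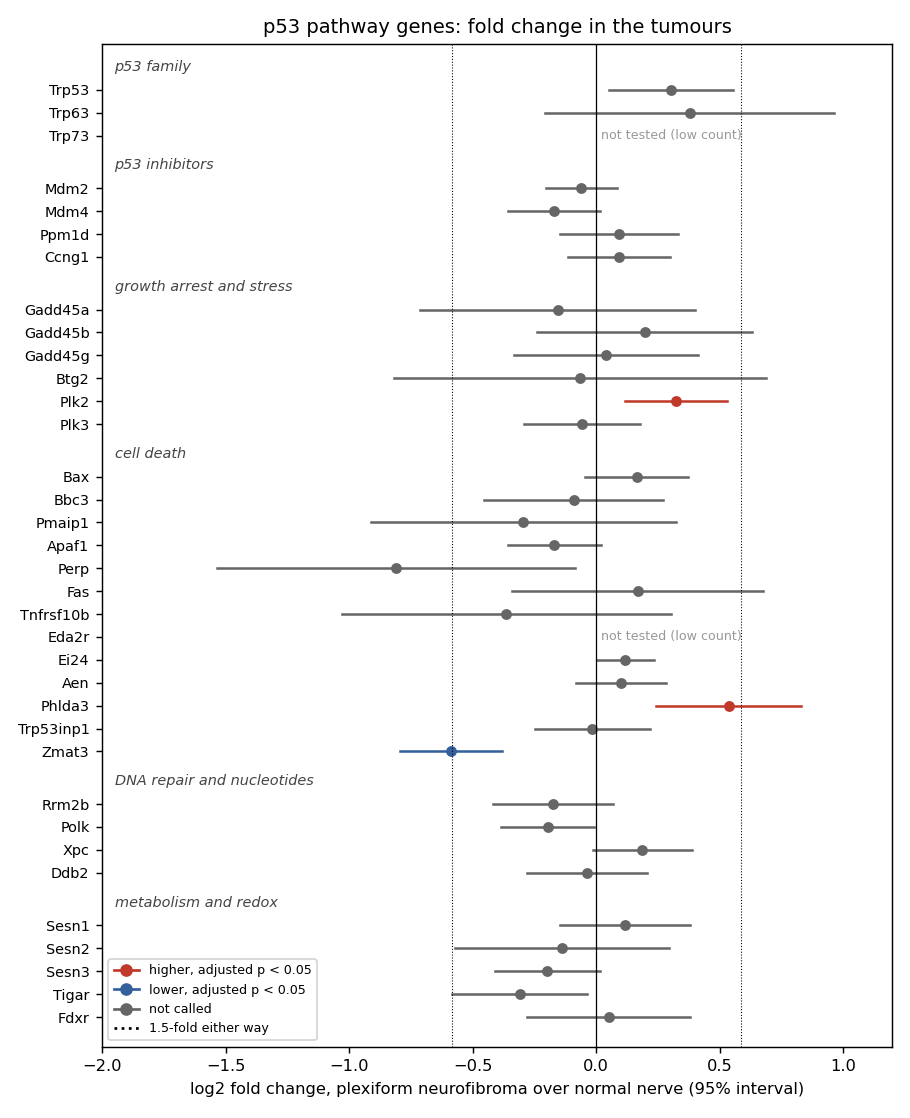
Log2 fold change, plexiform neurofibroma over normal nerve, of the p53 pathway genes by role. Points are edgeR estimates, bars their 95% intervals (n = 6 per group), the dotted lines mark 1.5-fold either way, and Eda2r and Trp73 were not tested; 23 of 33 intervals lie between the dotted lines, and Phlda3, Plk2 and Zmat3 are the coloured points.

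Of the p53 family, Trp53 encodes p53 itself, while Trp63 and Trp73 encode its relatives with roles in epithelia and in neural development. The lowest, median and highest Trp53 levels were 19.3, 21.1 and 26.9 CPM in the tumours, against 14.5, 18.2 and 22.1 CPM in normal nerve. The groups overlapped through normal replicate 1 and replicate 6. Trp53 (GRCm38, chromosome 11, 69580359 to 69591873) averaged 22.2 ± 2.94 CPM in the tumours and 17.99 ± 2.85 CPM in normal nerve (SD, n = 6 each), a fold of 1.23 with an interval of 1.04 to 1.47 and an adjusted p of 0.0844. Trp53 was called without normal replicate 1 (log2 fold change 0.37, adjusted p = 0.0395) and by limma-voom (adjusted p = 0.0444). Trp63 had 0.687, 1.01 and 1.18 CPM in the tumours and 0.345, 0.728 and 1.195 CPM in normal nerve, an interval of 0.866- to 1.95-fold. Trp73 had 0, 0.0934 and 0.661 CPM in the tumours and 0.0507, 0.0704 and 0.254 CPM in normal nerve, too few counts for the test. Per kilobase of its longest transcript, Trp53 stood at 6.78 CPM in the tumours and 5.49 CPM in normal nerve. Trp63 was at 0.181 and 0.139, and Trp73 at 0.0356 and 0.0232 CPM per kilobase, in the same order of groups.

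The 4 inhibitors and feedback genes of p53 were all held within 1.5-fold by their intervals, and none was called. Mdm2 is the ubiquitin ligase that degrades p53 and is itself a p53 target. Its lowest, median and highest levels were 32.9, 36.3 and 42.0 CPM in the tumours and 35.8, 37.7 and 41.6 CPM in normal nerve. The tumours' range enclosed that of normal nerve. Mdm2 (chromosome 10, 117688875 to 117710758) averaged 36.6 ± 3.03 CPM in the tumours and 38.2 ± 2.14 CPM in normal nerve, a fold of 0.960 with an interval of 0.869 to 1.06 and an adjusted p of 0.551. Mdm4, which masks the activation domain of p53, had 58.5, 65.3 and 79.5 CPM in the tumours and 66.9, 75.6 and 84.1 CPM in normal nerve, an interval of 0.782- to 1.01-fold. With a sensory neuron score as a covariate, Mdm4 was called lower (log2 fold change -0.24, adjusted p = 0.0454). Ppm1d, a phosphatase that switches off damage signalling, had an interval of 0.903- to 1.26-fold. Ccng1, cyclin G1, was the member with the highest level per length, at 42.6 CPM per kilobase in the tumours and 40.0 CPM per kilobase in normal nerve. It had 132, 147 and 177 CPM in the tumours and 112, 140 and 166 CPM in normal nerve, an interval of 0.925- to 1.23-fold.

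Promoters were searched for the p53 response element, a pair of adjoining half-sites of 10 bases each, here with no spacer between them and with the core C and G of each half-site required. The consensus reads alike on both strands, so a single pass covers both. Windows from 250 bases before to 50 after the start site were taken from RefSeq (GRCm38.p6), which held 26 of the 35 genes and 23 of 26 further p53 targets. With up to 2 mismatches, the element was found for Ccng1 and Trp73 of the 26, for Cdkn1a, Rps27l, Gtse1 and Ckap2 of the 23, and for 0.392% of 27025 genes. Capitals mark the 20-base element, with its flanks in lower case, read on the gene's strand. The matches upstream of a RefSeq transcript start are shown so that the letters at Ccng1, Cdkn1a and Rps27l can be read beside their levels.
Ccng1, chr11:40755462-40755481, 1 mismatch: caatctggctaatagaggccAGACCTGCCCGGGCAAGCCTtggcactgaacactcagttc
Trp73, chr4:154097220-154097239, 2 mismatches: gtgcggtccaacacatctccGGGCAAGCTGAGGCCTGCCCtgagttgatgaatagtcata
Cdkn1a, chr17:29090928-29090947, 1 mismatch: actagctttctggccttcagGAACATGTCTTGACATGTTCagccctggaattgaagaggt
Rps27l, chr9:66946296-66946315, 1 mismatch: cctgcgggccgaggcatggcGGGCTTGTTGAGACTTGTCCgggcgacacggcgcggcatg
Ckap2, chr8:22186003-22186022, 2 mismatches: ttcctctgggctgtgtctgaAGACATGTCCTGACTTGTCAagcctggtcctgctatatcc
The Ccng1 and Trp73 genes lie on the minus strand, as does Ckap2, and Cdkn1a and Rps27l on the plus strand. The Trp73 and Rps27l matches precede a RefSeq start that is internal to the gene, and lie inside the span of the gene in GENCODE, in no annotated exon of that gene. The Trp73 match also lies in an exon of the antisense gene Trp73os. Those of Ccng1, Cdkn1a and Ckap2 lie before the whole gene. Of these 5 genes, Rps27l was called, with a fold of 1.36. The windows of Phlda3 and Plk2 held no match, which says only that these letters were not in those 300 bases, and Zmat3 had no window.

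Among the 6 genes of growth arrest and stress, Plk2 rose and none fell. Plk2, a polo-like kinase of the stress response, had 22.8, 25.5 and 27.7 CPM in the tumours, against 17.1, 20.2 and 25.6 CPM in normal nerve. The groups overlapped only through normal replicate 6. Plk2 (chromosome 13, 110395046 to 110400844) averaged 25.4 ± 1.83 CPM in the tumours and 20.3 ± 2.99 CPM in normal nerve, a fold of 1.25 with an interval of 1.08 to 1.44 and an adjusted p of 0.0328. The call was lost without any 1 of tumour replicates 3, 4 and 6 and normal replicates 1, 3, 4 and 5, where the log2 fold change was at least 0.283 and the adjusted p at most 0.0759. With a sensory neuron score as a covariate the adjusted p was 0.0598. Its relative Plk3 had an interval of 0.816- to 1.13-fold.

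The Gadd45 genes encode small stress sensors that bind PCNA and stress kinases. Gadd45a had 13.5, 16.8 and 19 CPM in the tumours and 10.9, 15.3 and 36.2 CPM in normal nerve, and its spread in normal nerve left an interval of 0.611- to 1.32-fold. The intervals were 0.847- to 1.55-fold for Gadd45b and 0.795- to 1.33-fold for Gadd45g. Gadd45a overlaps a non-coding transcript on the opposite strand, so part of its count is uncertain. Btg2, an antiproliferative gene, had 8.50, 11.5 and 14.6 CPM in the tumours and 5.63, 8.82 and 28.7 CPM in normal nerve. Its fold of 0.956 had an interval of 0.567 to 1.61. The sign rested on normal replicate 6: without it the log2 fold change of Btg2 was 0.41, at an adjusted p of 0.142.

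Of the 13 cell death genes, 12 were tested, 1 rose and 1 fell. Phlda3, which restrains Akt signalling at the membrane, had 31.8, 38.3 and 54.0 CPM in the tumours, against 23.3, 28.03 and 33.6 CPM in normal nerve. All the tumours but replicate 3 were above every normal nerve. Phlda3 (chromosome 1, 135766119 to 135769136) averaged 41.1 ± 8.04 CPM in the tumours and 28.3 ± 4.53 CPM in normal nerve, a fold of 1.45 with an interval of 1.18 to 1.78 and an adjusted p of 0.0179. Its highest levels, in tumour replicates 2 and 4, were in the libraries with the most Schwann cell marker RNA, at 11395 and 9680 CPM in sum, and the part of cell composition in the rise was not tested. Phlda3 kept its call under each alternative tried, with adjusted p between 0.00252 and 0.0495.

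Zmat3, a zinc finger protein that binds RNA and acts downstream of p53, went the other way. It had 62.5, 69.3 and 79.2 CPM in the tumours, against 82.0, 108 and 120 CPM in normal nerve. Every tumour lay below every normal nerve. Zmat3 (chromosome 3, 32334792 to 32366014) averaged 69.9 ± 6.30 CPM in the tumours and 105 ± 14.3 CPM in normal nerve, a fold of 0.666 with an interval of 0.577 to 0.769 and an adjusted p of 0.00298. With a sensory neuron score as a covariate, the log2 fold change of Zmat3 was -0.51, against -0.59 without it, and the adjusted p was 0.0037. It kept its call under each alternative tried.

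**Figure D2:**
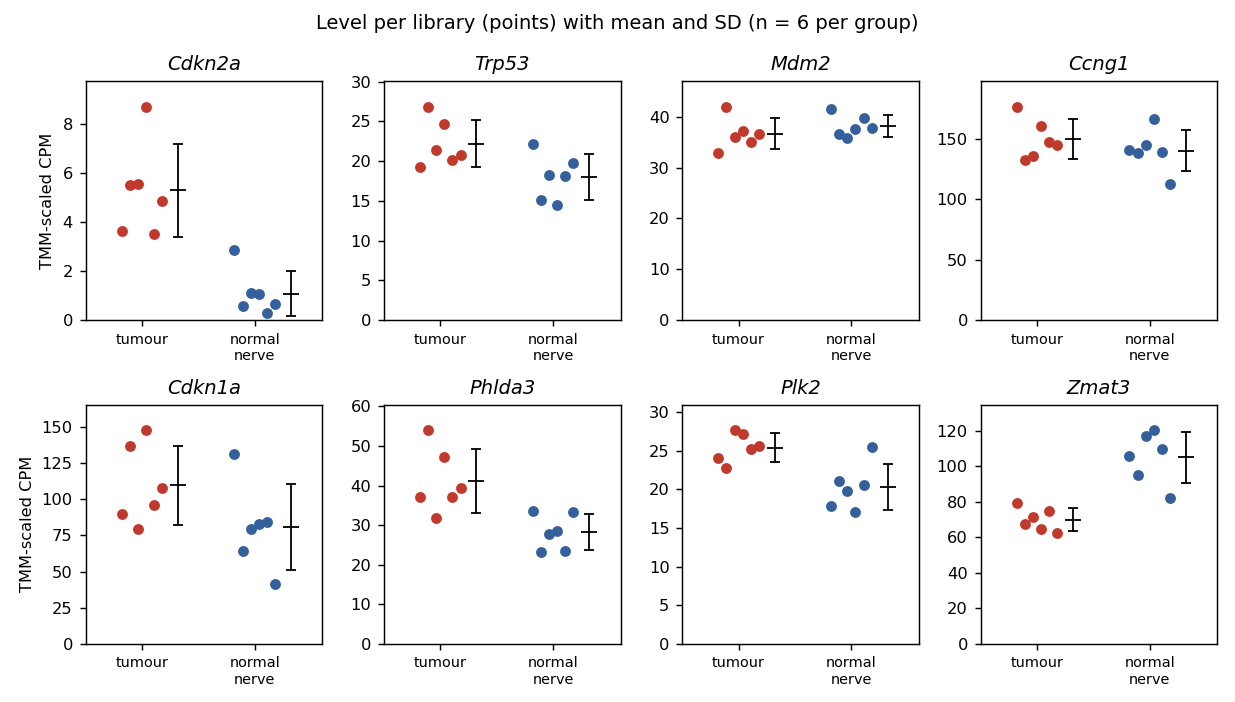
TMM-scaled CPM in each plexiform neurofibroma (tumour, red) and normal nerve (blue) library for Cdkn2a, Trp53, Mdm2, Ccng1, Cdkn1a, Phlda3, Plk2 and Zmat3, with the mean and SD of 6 libraries as a bar beside the points. Cdkn2a is higher and Zmat3 lower in every tumour than in any normal nerve, and the groups overlap in the other 6 panels.

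The core apoptotic effectors were not called. Bax, which opens the outer mitochondrial membrane, had 18.4, 21.5 and 25.9 CPM in the tumours and 16.2, 19.4 and 22.2 CPM in normal nerve, an interval of 0.970- to 1.29-fold. Bbc3, which encodes Puma, had 3.36, 3.95 and 4.24 CPM in the tumours and 2.42, 4.30 and 5.24 CPM in normal nerve, an interval of 0.730- to 1.21-fold. Pmaip1, which encodes Noxa, had 3.25, 4.07 and 7.59 CPM in the tumours and 2.39, 5.65 and 8.90 CPM in normal nerve, an interval of 0.531- to 1.25-fold. Apaf1, the scaffold of the apoptosome, had an interval of 0.781- to 1.01-fold.

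Death receptors were low. Fas had 2.33 to 4.30 CPM in the tumours and 1.74 to 4.58 CPM in normal nerve, and Tnfrsf10b, the mouse TRAIL receptor, had 0.777 to 2.71 CPM in the tumours and 1.28 to 3.40 CPM in normal nerve. Eda2r, a receptor of the TNF family, had 0.461, 0.834 and 2.22 CPM in the tumours and 0.102, 0.446 and 0.576 CPM in normal nerve. It averaged 0.993 ± 0.621 CPM in the tumours and 0.386 ± 0.189 CPM in normal nerve. Tested with no filter, its log2 fold change was 1.37 with an adjusted p of 0.0728. It was called by DESeq2 (adjusted p = 0.0313), without tumour replicate 1 (0.0359) and without normal replicate 6 (0.035), settings in which it passes a filter through the group where it is high. Perp, a desmosomal protein of the apoptotic response, had 2.98, 4.47 and 7.02 CPM in the tumours and 4.99, 6.05 and 18.5 CPM in normal nerve. Its fold of 0.571 was the lowest of the 33, at an adjusted p of 0.105, and the highest normal value was again in replicate 6. With the sensory neuron covariate, Perp was called lower (log2 fold change -0.919, adjusted p = 0.036). The intervals of Ei24, Aen and Trp53inp1 all lay between 0.842- and 1.22-fold.

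None of the 4 genes of DNA repair and nucleotide supply was called, and all 4 intervals lay within 1.5-fold. Xpc and Ddb2 recognise ultraviolet lesions, Polk copies past damaged bases, and Rrm2b supplies deoxynucleotides outside S phase. Xpc had an interval of 0.990- to 1.31-fold, Polk 0.766- to 0.994-fold and Rrm2b 0.748- to 1.05-fold. By limma-voom, Xpc was called higher (log2 fold change 0.252, adjusted p = 0.0314). Ddb2 had 8.70 to 11.4 CPM in the tumours and 8.23 to 11.7 CPM in normal nerve. It overlaps the highly counted Acp2 on the opposite strand, and whether counting used strand is not given, so its level is uncertain.

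The 5 genes of metabolism and redox control were also within 1.5-fold. Sestrins restrain mTORC1 in response to stress and amino acid lack. Per kilobase, Sesn1 stood at 19.6 CPM in the tumours and 18.1 CPM in normal nerve, Sesn3 at 10.9 and 12.5, and Sesn2 at 1.35 and 1.48. The intervals were 0.905- to 1.30-fold for Sesn1, 0.673- to 1.23-fold for Sesn2 and 0.753- to 1.01-fold for Sesn3. Tigar, which diverts glucose from glycolysis, had 36.3, 41.8 and 46.9 CPM in the tumours and 38.0, 51.3 and 67.5 CPM in normal nerve. Its fold was 0.807, with an interval of 0.668 to 0.974 and an adjusted p of 0.0996. Without normal replicate 6, the adjusted p of Tigar was 0.0194, at a log2 fold change of -0.38. By limma-voom, Tigar was also called lower (log2 fold change -0.418, adjusted p = 0.00919). Fdxr, a mitochondrial electron carrier reductase, had an interval of 0.825- to 1.30-fold.

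**Figure D3:**
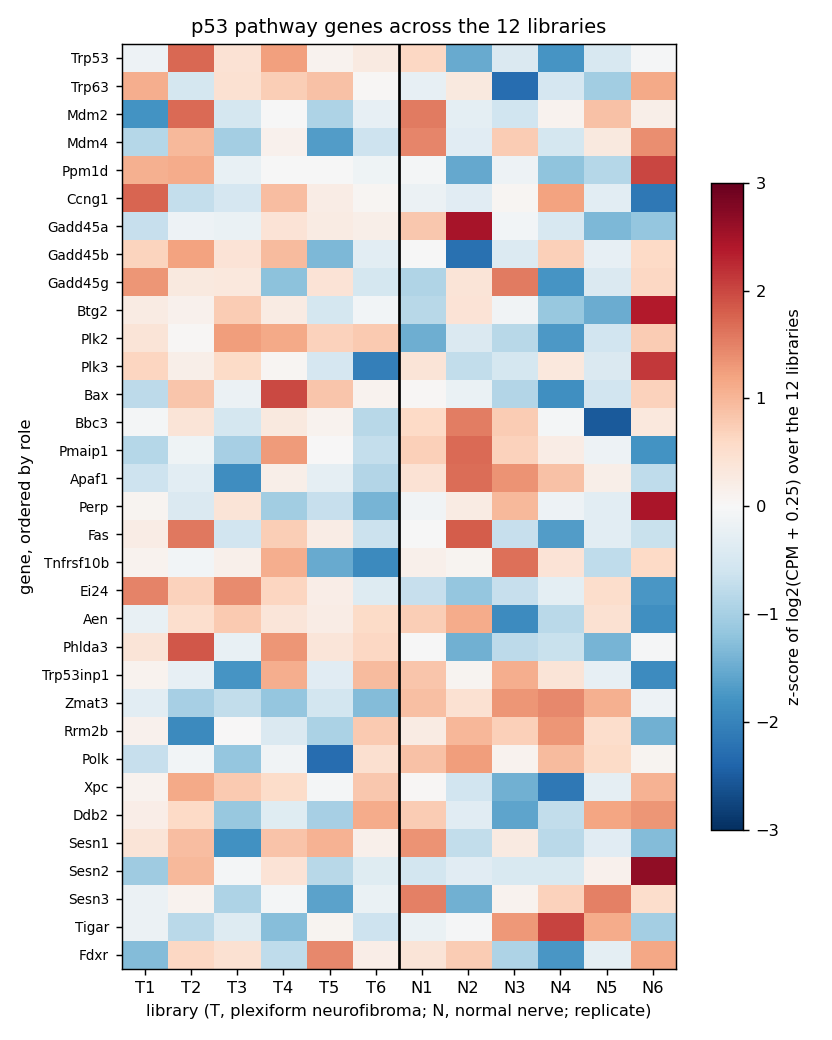
Colour gives the z-score of log2(CPM + 0.25) over the 12 libraries for each of the 33 tested genes, grouped by role, with the 6 plexiform neurofibromas (T) left of the 6 normal nerves (N). Single libraries such as N6 and N2 hold the strongest colours, and no role group is coloured alike across all 6 tumours.

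Libraries of 1 group differed from each other in these genes. Normal replicate 6 held the highest normal level of 11 of the 35 genes and the lowest of 10. Its highs included Btg2, Perp, Sesn2, Plk3 and Ppm1d. In the same library the immediate early genes Fos and Egr1 stood at 26.9 and 51.4 CPM, where the other normal nerves had at most 4.52 and 15.4 CPM. Normal replicate 2 held the highest normal level of 8 genes, among them Gadd45a, Pmaip1, Bbc3, Fas and Apaf1. There Atf3, a factor induced by nerve injury, stood at 46.5 CPM, and Hrk, a BH3-only gene of neurons, at 14.8 CPM, both the highest of the 12 libraries. Tumour replicate 2 held the highest tumour level of 11 genes, among them Trp53, Mdm2, Mdm4 and Phlda3. The part of these library differences in the group values was not tested beyond leaving libraries out. Without normal replicate 6, 4 of the 35 genes were called higher (Phlda3, Plk2, Xpc and Eda2r) and 2 lower (Zmat3 and Tigar). Calls over all genes rose as well, to 2544 higher and 2487 lower of 17470, from 1730 and 1488 of 17236. With tumour replicates 3, 4 or 6 or normal replicates 3, 4 or 5 left out, 1 at a time, Phlda3 alone was called higher. In those fits 1092 to 1598 of all genes were called higher. Leaving out tumour replicate 1 and normal replicates 2 and 6 together, a choice made after seeing the data, gave 4 called higher (Phlda3, Plk2, Eda2r and Btg2) and 3 lower (Zmat3, Sesn3 and Tigar). Of all 17348 genes tested there, 2185 were called higher and 2025 lower. Eda2r, not tested in the main fit, entered these counts by passing the filter through the group where it is high, so its calls are no support.

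The Cdkn2a locus itself rose in the tumours. Cdkn2a had 3.49, 5.18 and 8.70 CPM in the tumours, against 0.285, 0.853 and 2.84 CPM in normal nerve. Every tumour was above every normal nerve. The mean was 5.29 ± 1.89 CPM in the tumours and 1.08 ± 0.914 CPM in normal nerve, a fold of 4.79 with an interval of 2.48 to 9.26 and an adjusted p of 0.00609. The count is per gene, so transcripts for p16Ink4a and p19Arf are not separated. Cdkn1a, which encodes the Cdk inhibitor p21 and is the best known p53 target, had 79.3, 102 and 148 CPM in the tumours and 41.4, 81.4 and 132 CPM in normal nerve. Its fold was 1.36, with an interval of 0.952 to 1.94 and an adjusted p of 0.201.

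The values of 3 single libraries, picked after they were seen, set the locus beside the targets. Tumour replicate 4, with the most Cdkn2a, also had the most Cdkn1a, Bax, Pmaip1 and Eda2r of the 6 tumours. Its Mdm2 was 37.3 CPM, next after the highest tumour at 42.0 CPM, where the tumour median was 36.3 CPM. Normal replicate 1, with the most Cdkn2a of the normal nerves, had the most Cdkn1a, Trp53 and Mdm2 of that group. Its Schwann cell marker sum was also the highest of the normal nerves, at 6267 CPM with the others at most 4233 CPM. Tumour replicate 5, with the least Cdkn2a of the tumours, had 35.0 CPM of Mdm2 and 96.4 CPM of Cdkn1a.

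Of the upstream regulators of p53, all 25 were tested, 3 were called higher and 4 lower. Those called made up 28% of the list, against 18.7% of all genes, and those called higher 12%, near the 10.0% of all genes. Besides Cdkn2a, the genes called higher were Rpl5 and Rpl11, ribosomal proteins that bind Mdm2 when they are free of the ribosome. Rpl5 averaged 268 ± 20.7 CPM in the tumours and 186 ± 17.5 CPM in normal nerve (fold 1.44, adjusted p = 0.00205). Rpl11 averaged 282 ± 11.4 CPM in the tumours and 206 ± 26.5 CPM in normal nerve (fold 1.37, adjusted p = 0.00474). Ppp1r13b, which encodes the p53 cofactor ASPP1, fell to 34.1 ± 3.27 CPM in the tumours, against 44.1 ± 3.78 CPM in normal nerve (fold 0.775, adjusted p = 0.0086). The genes called lower also included Trp53bp1, Usp7 and Atr. Leaving out 1 library at a time, Usp7 kept its call only without tumour replicate 5 or normal replicate 6, and Atr only without tumour replicate 1 or normal replicate 1 or 6. The count of genes called lower was 2 without any 1 of tumour replicates 2, 3, 4 and 6 and normal replicates 2 to 5, and 7 without normal replicate 6. Over all genes, 801 to 1265 were called lower in the former fits and 2487 of 17470 in the latter.

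A list of 26 further p53 targets, which includes Cdkn1a, gave other values. Like the other lists, it was chosen with earlier results of these data known, so its shares are a description only. Of the 25 tested, 9 were called higher (36%, where 10.0% of all genes were) and 0 lower (where 8.63% of all genes were). In edgeR, 11 of the 25 had an unadjusted p under 0.05, as did 8 of the 33 p53 pathway genes and 6071 of all 17236 genes tested. The median log2 fold change was 0.44, against -0.02 over all genes, and 5 of the 25 (20%) had all tumours above all normal nerves, as did 4.40% of all genes. DESeq2 and limma-voom also called 0 lower. Of the genes called higher, Ephx1 lost its call in 10 of 12 fits that left out 1 library, and Epha2 in 9 of 12. Igfbp3, a secreted binder of insulin-like growth factors, averaged 37.5 ± 5.32 CPM in the tumours and 17.3 ± 3.01 CPM in normal nerve (fold 2.17, adjusted p = 0.001). Dram1, a lysosomal protein of autophagy, averaged 4.93 ± 1.92 CPM in the tumours and 1.57 ± 0.414 CPM in normal nerve (fold 3.12, adjusted p = 0.00317).

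Rps27l, whose promoter element is printed above, had 23.3, 25.2 and 28.5 CPM in the tumours, against 16.3, 18.7 and 21.4 CPM in normal nerve (fold 1.36, adjusted p = 0.00435). Steap3, a metalloreductase of iron uptake, averaged 46.1 ± 3.02 CPM in the tumours and 31.1 ± 5.05 CPM in normal nerve (fold 1.48, adjusted p = 0.00469). All 4 genes were higher in 6 of 6 tumours than in any normal nerve. The fibroblast and Schwann cell marker sums were higher in the same tumours, and their part in this list was not tested. No difference between this list and the 35 genes was tested.

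**Figure D4:**
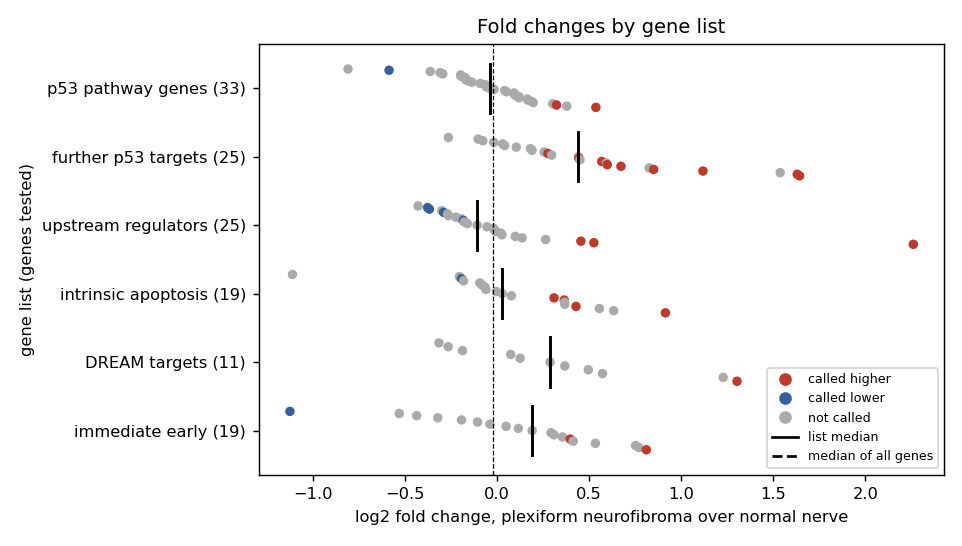
Log2 fold change, plexiform neurofibroma over normal nerve, of each tested gene in 6 lists (genes tested in brackets), with called genes in colour. Short black bars are list medians and the dashed line is the median of all genes; the bar of the 33 p53 pathway genes is at -0.04 and that of the 25 further targets at 0.44.

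Of 19 tested genes of intrinsic apoptosis, 4 were called higher and 1 lower, in all 26.3% of the list, against 18.7% of all genes. Those called higher were 21.1%, against 10.0% of all genes. Those called higher included the initiator Casp2 and the survival genes Mcl1 and Bcl2. Mcl1 averaged 102 ± 12.7 CPM in the tumours and 79.6 ± 7.27 CPM in normal nerve (fold 1.29, adjusted p = 0.0147). Bcl2 lost its call without tumour replicate 2 or 4 or normal replicate 4, and Casp2 without any 1 of tumour replicates 1, 2, 4 and 6 and normal replicates 2, 4 and 5. The count of genes called higher was 2 without tumour replicate 2 or 4 or normal replicate 4, and 7 without normal replicate 6. Over all genes, 1092 to 1336 were called higher in the former fits and 2544 of 17470 in the latter, which called 2487 lower. The gene called lower, the survival gene Bcl2l2 (fold 0.875, adjusted p = 0.0468), was not called without any 1 of tumour replicates 1, 2, 3, 4 and 6 and normal replicates 2 to 5, and 3 genes were called lower without normal replicate 6.

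Targets of the DREAM complex are cell cycle genes that p53 represses through p21. Of the 11 tested, 1 was called higher in edgeR, Cenpf of the kinetochore (fold 2.47, adjusted p = 0.0283), and 0 lower. In edgeR, 2 of the 11 had an unadjusted p under 0.05, where 6071 of all 17236 genes tested did. DESeq2 and limma-voom each called 2 higher and 0 lower. The share called higher, 9.09%, was near the 10.0% of all genes. Cenpf was not called without any 1 of tumour replicates 2, 4 and 6 and normal replicates 1 and 5. The count of genes called higher was 2 without tumour replicate 5 and 3 without normal replicate 3. In those fits 1697 and 1559 of all genes were called higher, in that order, against 1730 in the main fit. Of 19 tested immediate early genes, Nr4a1 and Klf6 were called higher and Klf2 lower. The share called was 15.8%, under the 18.7% of all genes, and the share called higher was 10.5%, near the 10.0% of all genes. Nr4a1 averaged 51.3 ± 8.31 CPM in the tumours and 29.3 ± 5.63 CPM in normal nerve (fold 1.75, adjusted p = 0.00325). Without normal replicate 6, 7 immediate early genes were called higher and 0 lower, where 2544 and 2487 of all 17470 genes tested were. Klf6 was not called without any 1 of tumour replicates 2, 4 and 6 and normal replicates 2 to 5, and Klf2 was not called without any 1 of tumour replicates 1, 3, 4, 5 and 6 and normal replicates 2, 3 and 6.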

How the data were processed

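Per the labels, polyA RNA of trigeminal nerve was sequenced; they name a stranded mRNA kit and a TruSeq kit together, which leaves the strand open to doubt. The submitters' processing notes list build mm10 and the tools Salmon 0.60, STAR 2.4.2a, DESeq2 and FastQC, giving none of them a role. The authors deposited estimated counts per gene symbol without normalization; they were rounded to whole numbers before testing. Such estimates can split reads between near-identical copies, and which of the genes named here have such copies was not examined. Rrm2b, Mdm4 and Trp63 each overlap a processed pseudogene by position, which averaged 4.1, 4.4 and 0.2 counts per library, in that order. Bax overlaps the protein-coding Gm45808 on the same strand over 915 bases, so part of its count is uncertain. Coordinates are from GENCODE vM21 on GRCm38, the assembly of mm10.

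The main test was edgeR 4.0.16 (R 4.3.3; quasi-likelihood, robust, TMM factors, filterByExpr, no covariate), checked on simulated data. Alternatives were other factors and filters, DESeq2 1.42.0, limma-voom (limma 3.58.1, with sample weights), a sensory neuron covariate, a length correction and libraries left out. The labels do not say that samples came from separate animals, so p-values measure only the spread between these samples. The genes and lists were chosen with earlier results of these data known. Called genes, the Trp53 family, Mdm2 and Mdm4 are given in full, with up to 4 called genes of each other list in order of p. Cop1 was matched through its older symbol, Rfwd2. The values of 1 called gene of the intrinsic apoptosis list are not reported here.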

Additional observations from a re-analysis of the deposited data

Results flagged for a closer look

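In 11 of 74 sets of 6 libraries of 1 group (the 35 genes, Cdkn2a and Cdkn1a in both groups), the highest or lowest library stood apart from the rest by Dixon's criterion, where chance gives about 1 in 20. Normal replicate 6 stood apart for 5 genes. There Btg2 was at 28.7 CPM, with the next normal nerve at 12.7 CPM, and Perp at 18.5 CPM, with the next at 9.21 CPM. In that library Sesn2 was at 8.70 CPM, Ppm1d at 11.6 CPM and Plk3 at 9.96 CPM. Tumour replicate 4 stood apart for Pmaip1, at 7.59 CPM with the next tumour at 4.77 CPM, and for Eda2r, at 2.22 CPM with the next at 0.917 CPM. Tumour replicate 3 was lowest for Sesn1, at 53.4 CPM with the next tumour at 72.7 CPM, and highest for Trp73, at 0.661 CPM. Fas in normal replicate 2 was at 4.58 CPM. Cdkn2a in normal replicate 1 was at 2.84 CPM, with the next normal nerve at 1.09 CPM.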

How the results depend on the processing

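No paired analysis was possible because the labels give no replicate numbers. Phlda3, Zmat3 and Cdkn2a kept direction and call under each alternative. Of the 1238 values of 59 genes under alternatives, 1086 kept direction and side of the threshold, 112 lost the call, 10 gained it and 30 changed sign. Main counts of genes called higher and lower were 2 and 1 for the p53 pathway, 9 and 0 for further targets, 3 and 4 upstream, 4 and 1 for intrinsic apoptosis, 1 and 0 for DREAM targets and 2 and 1 for immediate early genes. For the p53 pathway, limma-voom called 4 higher and 2 lower, the sensory neuron covariate 1 and 3, and leaving out the 3 libraries that stood apart 4 and 3. Eda2r, not tested in the main fit, was in each count of 4 that came from leaving libraries out. Counts over all genes moved too. They were 1730 higher and 1488 lower of 17236 in the main fit and 2864 and 2701 with limma-voom. The covariate gave 1444 and 1616, and leaving out the 3 libraries 2185 and 2025 of 17348. With 1 library left out, 1092 to 2544 of all genes were called higher and 801 to 2487 lower. Leaving out 1 library at a time gave 1 to 4 higher and 1 to 2 lower for the p53 pathway, 7 to 10 higher for further targets and 2 to 7 lower upstream. It gave 2 to 7 higher and 0 to 3 lower for intrinsic apoptosis, 0 to 3 higher for DREAM targets, and 1 to 7 higher and 0 to 1 lower for immediate early genes. Upstream genes called lower were 2 with no filter, 9 with limma-voom, 1 with the length correction and 8 without the 3 libraries. Over all genes, 902 of 32206 were called lower with no filter and 1110 of 16990 with the length correction. DESeq2 called 2286 of all 18951 genes higher and 1954 lower. Intrinsic apoptosis genes called lower were 0 with upper-quartile factors, no filter, the covariate or the length correction, 2 with DESeq2 and 3 with limma-voom. DREAM targets called higher were 2 with DESeq2 or limma-voom and 0 with the covariate. Immediate early genes called higher were 6 with limma-voom, 1 with the covariate and 5 without the 3 libraries, and called lower were 0 with no filter, limma-voom or without the 3 libraries. The cause was not tested.

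Signs changed in log2 fold changes that were not all near 0. In the main fit, Pmaip1 was at -0.295, Gadd45a at -0.155 and Btg2 at -0.0649. None of those that changed sign was called, except Btg2 without the 3 libraries (0.59, adjusted p = 0.0431 in edgeR). Without the 3 libraries the values were 0.0152 for Bbc3, 0.13 for Gadd45a, 0.14 for Sesn2 and -0.0314 for Ccng1. With limma-voom they were 0.000232 for Bbc3, 0.0373 for Gadd45a, 0.46 for Btg2 and 0.0112 for Ddb2. With the covariate they were 0.0135 for Pmaip1, 0.0809 for Gadd45a, 0.0258 for Trp53inp1 and -0.00379 for Ppm1d. With the length correction they were -0.0885 for Gadd45g, 0.0519 for Trp53inp1 and -0.019 for Fdxr. Leaving out 1 library gave -0.27 to 0.16 for Gadd45a, -0.0426 to 0.16 for Gadd45g, -0.22 to 0.076 for Sesn2, -0.081 to 0.0438 for Trp53inp1, -0.0811 to 0.00875 for Plk3, -0.21 to 0.41 for Btg2, -0.026 to 0.13 for Fdxr and -0.0868 to 0.00506 for Ddb2. Eda2r, Trp63 and Trp73 averaged under 1 CPM in both groups, where counts limit precision.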

Other observations

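With up to 3 mismatches allowed, the p53 response element was found in the promoter windows of 7 of the 26 p53 pathway genes with a window, of 4 of the 23 further targets and of 1.63% of all 27025 genes. The 7 genes were Trp53, Bbc3, Sesn1, Ccng1, Aen, Tigar and Trp73. Trp73 was not tested, and none of the others was called in the tumours, where 18.7% of all genes tested were. Of the further list, Sertad1 and Lif were also called higher (fold 1.80, adjusted p = 0.00473, and fold 3.09, adjusted p = 0.0116, both in edgeR). Lif, a cytokine of injured nerve, averaged 3.001 ± 1.55 CPM in the tumours and 0.971 ± 0.39 CPM in normal nerve.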
